A study of Homo sapiens with 4 samples.

Results

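Microtubule regulators other than the motor proteins were followed in RD cells made resistant to vincristine. The 44 genes encode enzymes that modify tubulin, cofactors that fold it, severing enzymes, stathmins, and proteins that bind growing plus ends, minus ends or the lattice. They were chosen by name for these functions, and 43 of them had a row in the table of 18375 genes. All 43 passed the filter on low values. TBCE, a folding cofactor gene, had no row under its symbol and was not analysed here.

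RD is an established human cell line from a fusion-negative rhabdomyosarcoma, a tumour of the skeletal muscle lineage. Polyadenylated RNA was sequenced in 4 libraries. The resistant group has 2 libraries from RD cells labelled wild type that were started on vincristine at 1 to 1.5 nM, which killed about 80 to 90% of them, and were then taken through dose steps of 10 to 20% over 9 to 12 months until the half-maximal inhibitory concentration was at least 100-fold higher. The parental group has 2 libraries from untreated RD cells, also labelled wild type. Whether the resistant cells carried drug at harvest, how many clones or selections they represent, and whether the replicates came from separate cultures are not stated by the labels. The p-values therefore cover library-to-library spread alone, and part or all of it may be technical.

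The libraries held 58861281 to 67690557 reads over the genes of the table. Of 8 muscle lineage markers 6 were present, and their summed level was 141295 and 145373 normalized counts in resistant cells and 86979 and 86655 in parental cells. Of the 6, DES (1.46), MYMK (0.74), MYOG (0.70), CHRNA1 (0.58) and CDH15 (0.45) rose on the log2 scale, and MYOD1 (-0.06, limma adjusted p = 0.153) did not pass. The table held no endothelial marker of 3 looked for, and the only blood marker of 3 was CD68, at 6.49 to 7.64 normalized counts in resistant cells and 20.9 to 23.2 in parental cells. The 3 epithelial markers summed to 87.8 to 149 in resistant cells and 87.0 to 91.5 in parental cells. Of these CDH1 rose (1.16), from 6.77 and 10.9 in parental to 26.0 and 16.2 in resistant cells, and EPCAM and KRT5 did not pass. Of 3 neuronal markers, SYT1 and SNAP25 were present and summed to 1997 to 2127 in resistant cells and 2044 to 2104 in parental cells. SNAP25 alone was at 216 to 228 in resistant cells and 46.7 to 52.2 in parental cells, and rose (2.15). SYT1, the more abundant, fell (-0.14, limma adjusted p = 0.0150), at 1911 and 1769 in resistant and 2052 and 1997 in parental cells.

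Microtubules grow and shrink by adding and losing dimers of alpha- and beta-tubulin, and vincristine binds these dimers at microtubule ends. Newly made tubulin is folded by a chaperonin and then assembled into dimers by the cofactors TBCA to TBCE. Polymerized tubulin is marked by removal and return of a C-terminal tyrosine, by chains of glutamate or glycine and by acetylation, and stable microtubules tend to carry the detyrosinated and acetylated forms. Stathmins bind free dimers, severing enzymes cut the lattice, and end-binding proteins recruit other factors to the growing tip.

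VASH1 and VASH2, the vasohibin genes, encode the carboxypeptidases that remove the C-terminal tyrosine of alpha-tubulin, and TTL encodes the ligase that puts it back. The promoter windows of these 3 genes are shown because the first pair and the third differ in direction between the groups. Each window covers 250 bases before to 50 bases after the start annotated by RefSeq, in build GRCh38.p14. The plus strand is the coding strand in all 3. Capitals mark matches, on either strand, to the E-box CACGTG, any E-box CANNTG, the GC box GGGCGG and the CCAAT box. CACGTG is itself a case of CANNTG. The windows lie at chr14:76761218-76761517 for VASH1, chr1:212950291-212950590 for VASH2 and chr2:112481906-112482205 for TTL. The RefSeq start of VASH1 lies upstream of the GENCODE start used below for its position, and its window ends before that start.
VASH1: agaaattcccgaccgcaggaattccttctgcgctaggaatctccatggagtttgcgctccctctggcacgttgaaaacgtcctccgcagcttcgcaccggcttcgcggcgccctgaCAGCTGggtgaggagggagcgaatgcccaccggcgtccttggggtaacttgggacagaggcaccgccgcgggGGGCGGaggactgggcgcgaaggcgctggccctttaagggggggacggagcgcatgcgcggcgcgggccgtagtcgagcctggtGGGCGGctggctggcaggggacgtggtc
VASH2: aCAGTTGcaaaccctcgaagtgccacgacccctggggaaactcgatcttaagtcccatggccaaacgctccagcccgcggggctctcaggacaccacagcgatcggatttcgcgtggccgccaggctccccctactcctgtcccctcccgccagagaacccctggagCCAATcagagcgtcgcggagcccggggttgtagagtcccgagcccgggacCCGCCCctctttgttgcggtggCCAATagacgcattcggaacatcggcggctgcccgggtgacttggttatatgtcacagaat
TTL: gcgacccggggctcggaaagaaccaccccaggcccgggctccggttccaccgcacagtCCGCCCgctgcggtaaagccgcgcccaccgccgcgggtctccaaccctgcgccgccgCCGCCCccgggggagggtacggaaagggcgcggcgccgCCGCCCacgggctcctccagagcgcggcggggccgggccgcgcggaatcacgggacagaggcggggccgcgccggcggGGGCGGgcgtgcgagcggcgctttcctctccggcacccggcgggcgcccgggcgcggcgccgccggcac
The VASH1 window had 2 GC boxes and 1 CANNTG match, and the VASH2 window had 1 GC box, 2 CCAAT boxes and 1 CANNTG match. The TTL window had 4 GC boxes and neither of the other elements. None of the 3 held the E-box CACGTG bound by MYC and MAX, which was present in 7.26% of all 35116 windows and in 4 of 39 windows of these genes. GC boxes stood in 74.4% of the 39 windows and in 45.0% of all windows, which include those of noncoding genes, CCAAT boxes in 30.8% and 34.6%, and CANNTG in 69.2% and 68.7%.

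The comparison was of resistant with parental cells. Of the 43 measured, 12 rose in resistant cells, against a background of 32.7% of the 18330 genes tested, and 21 fell, against a background of 34.2% (limma with Benjamini-Hochberg adjustment over all genes tested). The remaining 10 did not pass. Together 33 of 43, or 76.7%, were past the threshold, where 66.9% of all genes were. Changes of at least 1.5-fold were found for 3 that rose and 7 that fell, 23.3% in all, against 29.3% of all genes. The median log2 fold change was -0.09, against 0.00 over all genes, and the median size of the change was 0.27, against 0.36. The resistant libraries did not overlap the parental ones for 39 of the 43 genes, or 90.7%, against 82.1% of all genes. Requiring a change above 1.2-fold left 5 that rose and 11 that fell, together 37.2%, against 37.1% of all genes, 18.4% higher and 18.6% lower. By the adjusted p of the authors' deposited table, 30 of the 43 passed 0.05, of which 12 were higher and 18 lower, against 27% and 29.6% of all genes in it, or 56.6% together. The 3 genes called here and not there were SPAST, FIGN and MAPRE2. In bulk RNA, less RNA per cell and fewer cells that carry it cannot be told apart.

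**Figure D1:**
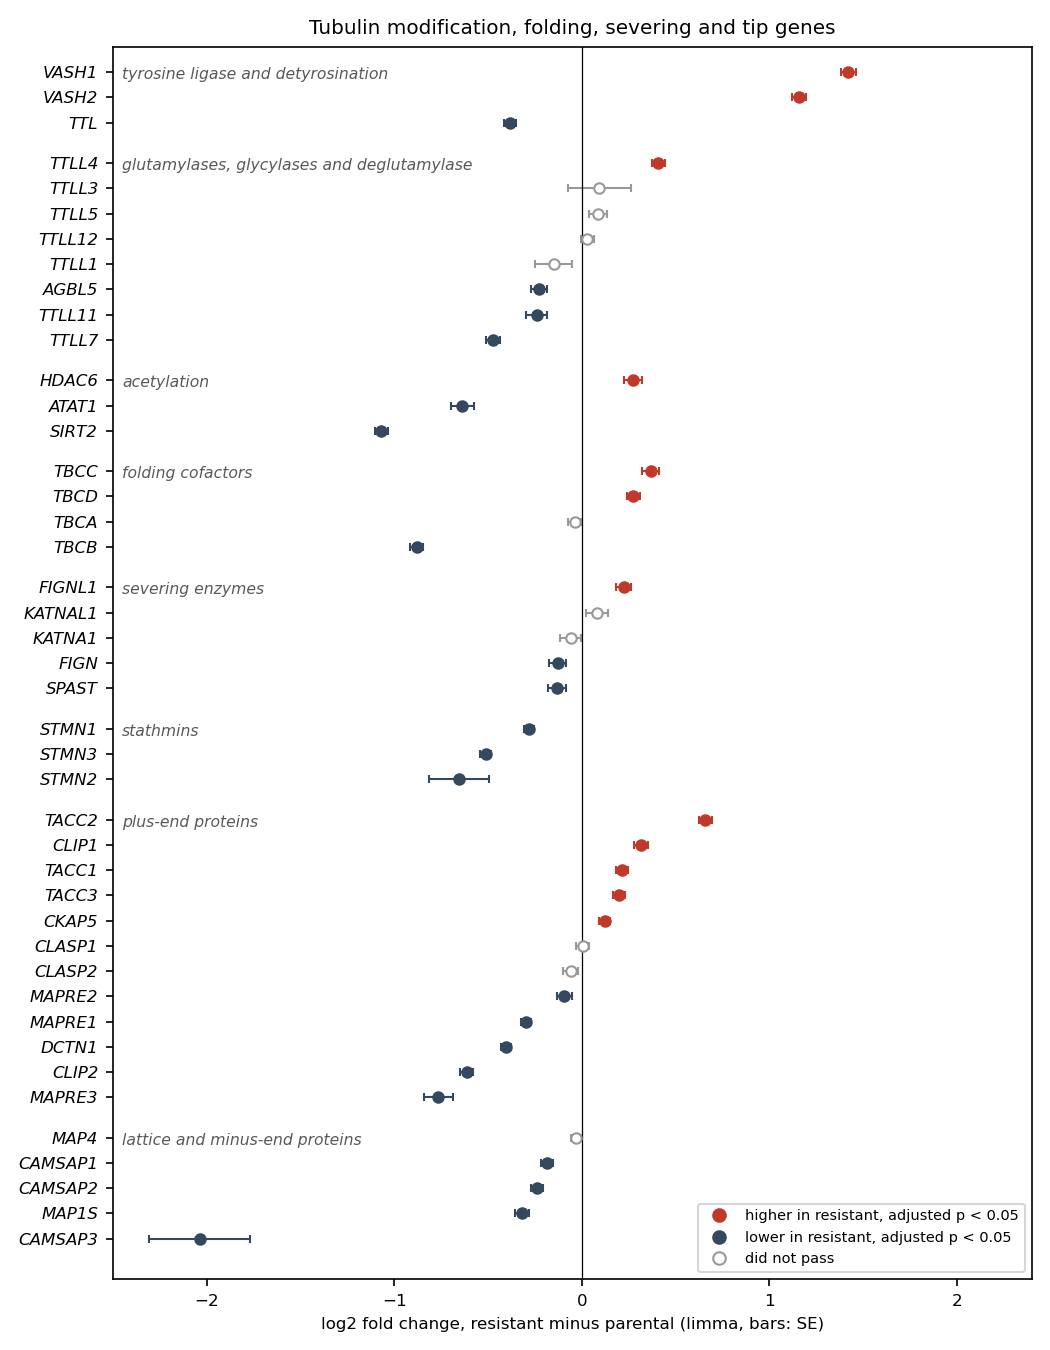
Log2 fold change of resistant minus parental cells for the 43 measured genes, grouped by function, with the limma standard error as bars. The vasohibin genes VASH1 (1.42) and VASH2 (1.16) lie farthest to the right, CAMSAP3 (-2.04) and SIRT2 (-1.07) farthest to the left, and all 3 stathmin genes lie left of 0.

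The vasohibin genes had the 2 largest increases. VASH1 (ENSG00000071246) had 7082 and 7481 normalized counts in the resistant libraries and 2768 and 2669 in the parental libraries. VASH2 (ENSG00000143494) had 6033 and 5864 in resistant and 2674 and 2663 in parental libraries. For both genes the resistant libraries lay well above the parental ones, with no overlap. The log2 fold change was 1.42 (SE 0.04, limma adjusted p = 1.32e-21) for VASH1 and 1.16 (SE 0.04, limma adjusted p = 7.28e-20) for VASH2. TTL went the other way, at 6907 and 6785 in resistant and 9034 and 8828 in parental libraries, a log2 fold change of -0.38 (SE 0.03, limma adjusted p = 6.34e-11). VASH1 has an antisense partner, VASH1-AS1, over 16.1% of its exonic bases, and no strand setting was given for the counting. On the same strand AF111169.1 covers 11.1% of the exonic bases of VASH1 and was not analysed here. VASH1-AS1 had 160 and 179 normalized counts in resistant and 121 and 127 in parental libraries, far below VASH1.

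Levels can be compared between genes only per length, and the following are levels in normalized counts per kilobase of merged exons. The sum of VASH1 and VASH2 over TTL was 3.99 and 4.16 in the resistant libraries and 1.25 and 1.25 in the parental libraries. This ratio is taken within a library and does not depend on how libraries were scaled. With the longest transcript as length it was 5.58 in resistant and 1.77 in parental cells (group means). The direction follows from the fold changes above and is no separate test. SVBP, the small subunit that vasohibins need for activity, had a log2 fold change of -0.16 (SE 0.05, limma adjusted p = 0.00361) and fell. KIAA0895L, now known as the further detyrosinating enzyme MATCAP, fell as well (-0.45, SE 0.06). Both were named after their values were seen.

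**Figure D2:**
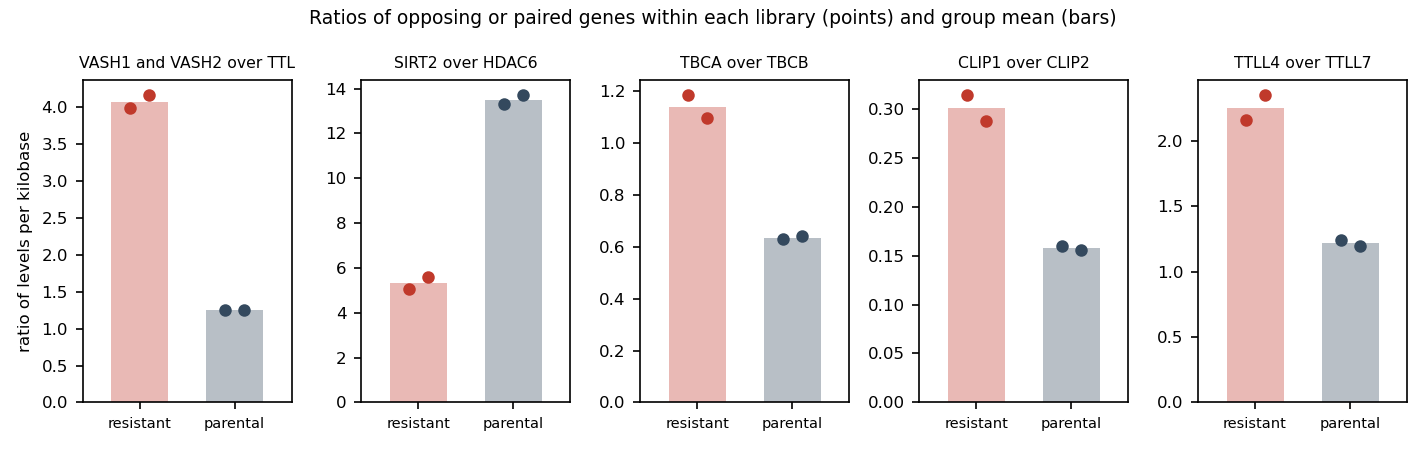
Ratios of levels per kilobase of merged exons within each library, as points for the 2 libraries and bars for the group mean. The ratio of VASH1 and VASH2 to TTL was 3.99 and 4.16 in resistant and 1.25 in both parental libraries, and SIRT2 over HDAC6 was 5.07 and 5.58 in resistant and 13.3 and 13.7 in parental libraries.

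Of the 8 genes of glutamate and glycine chains measured, 1 rose, 3 fell and 4 did not pass, and none reached 1.5-fold. Over all genes tested 32.7% rose and 34.2% fell, and 29.3% were called at 1.5-fold or more. TTLL4, a glutamylase that starts chains, had 7462 and 7745 normalized counts in resistant and 5745 and 5707 in parental libraries, a log2 fold change of 0.41 (SE 0.03, limma adjusted p = 4.08e-11). TTLL7, a glutamylase that prefers beta-tubulin, had 4745 and 4527 in resistant and 6337 and 6551 in parental libraries, a log2 fold change of -0.48 (SE 0.04, limma adjusted p = 7.55e-12). The ratio of TTLL4 to TTLL7 per kilobase was 2.16 and 2.35 in resistant and at most 1.24 in parental libraries. With the longest transcript as length it was 2.68 and 2.91 in resistant and 1.54 and 1.48 in parental libraries. TTLL11, a glutamylase that lengthens chains, fell by 0.24 and AGBL5, the deglutamylase that removes the branch-point glutamate, fell by 0.23 on the log2 scale. Both lost the call when a change above 1.2-fold was required. TTLL1 (-0.15), the catalytic subunit of a polyglutamylase complex, TTLL5 (0.09), a chain-starting glutamylase, and TTLL12 (0.03), a divergent family member, did not pass. TTLL5 passed at equal totals (0.12), at equal upper quartiles (0.14) and without resistant replicate 2 (0.10), and TTLL12 passed at equal upper quartiles (0.08) and without resistant replicate 1 (0.07). TTLL3, a glycylase, was at 94.1 and 112 in resistant and 98.6 and 93.4 in parental libraries (0.09, SE 0.17), and the readthrough gene ARPC4-TTLL3 shares 21.4% of its exonic bases, so its count is uncertain.

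Of the 3 acetylation genes, SIRT2 and ATAT1 fell and HDAC6 rose, where 34.2% of all genes fell and 32.7% rose. SIRT2 (ENSG00000068903), an NAD-dependent deacetylase of tubulin and other proteins, had 6014 and 6395 normalized counts in resistant libraries and 12781 and 13230 in parental libraries. Both resistant libraries lay far below both parental libraries, and the log2 fold change was -1.07 (SE 0.03, limma adjusted p = 5.62e-20). ATAT1 (ENSG00000137343), the acetyltransferase of alpha-tubulin, had 786 and 865 in resistant and 1296 and 1270 in parental libraries, a log2 fold change of -0.64 (SE 0.06, limma adjusted p = 6.35e-10). HDAC6, the main cytoplasmic deacetylase of tubulin, was at 2020 and 1951 in resistant and 1638 and 1645 in parental libraries and rose by 0.27 (SE 0.05, limma adjusted p = 1.39e-05), a call that was lost when a change above 1.2-fold was required. Per kilobase, SIRT2 was the more abundant deacetylase transcript in every library. It was at 5.07 and 5.58 times HDAC6 in resistant and 13.3 and 13.7 times in parental libraries. With the longest transcript as length it was at 3.30 and 3.63 times in resistant and 8.65 and 8.92 times in parental libraries. ATAT1 over the sum of both deacetylases was 0.168 and 0.177 in resistant and 0.145 and 0.138 in parental libraries.

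Of the 4 folding cofactors measured, 2 rose, 1 fell and 1 did not pass, where 32.7% of all genes rose and 34.2% fell. TBCB (ENSG00000105254), which binds alpha-tubulin after the chaperonin releases it, had 5935 and 6482 normalized counts in resistant libraries and 11461 and 11384 in parental libraries, a log2 fold change of -0.88 (SE 0.04, limma adjusted p = 1.39e-17). TBCC, which acts in the last step of dimer release, was at 2363 and 2421 in resistant and 1884 and 1826 in parental libraries and rose by 0.37 (SE 0.05, limma adjusted p = 7.08e-08). TBCD, a carrier of beta-tubulin, rose by 0.27 (SE 0.04), a call lost against 1.2-fold. TBCA, which takes beta-tubulin from the chaperonin, had 6467 and 6537 in resistant and 6638 and 6710 in parental libraries (-0.04, SE 0.03) and did not pass. TBCA over TBCB per kilobase was 1.18 and 1.10 in resistant and 0.630 and 0.641 in parental libraries. With the longest transcript as length it was 0.697 and 0.646 in resistant and 0.371 and 0.377 in parental libraries. By that length TBCB was the more abundant in every library. AD001527.2 on the same strand covers 5.83% of the exonic bases of TBCB and was not analysed here. POLR2I on the opposite strand covers 12.5% of the exonic bases of TBCB and also fell (-0.43, SE 0.05), at 2380 and 2623 in resistant and 3349 and 3406 in parental libraries.

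**Figure D3:**
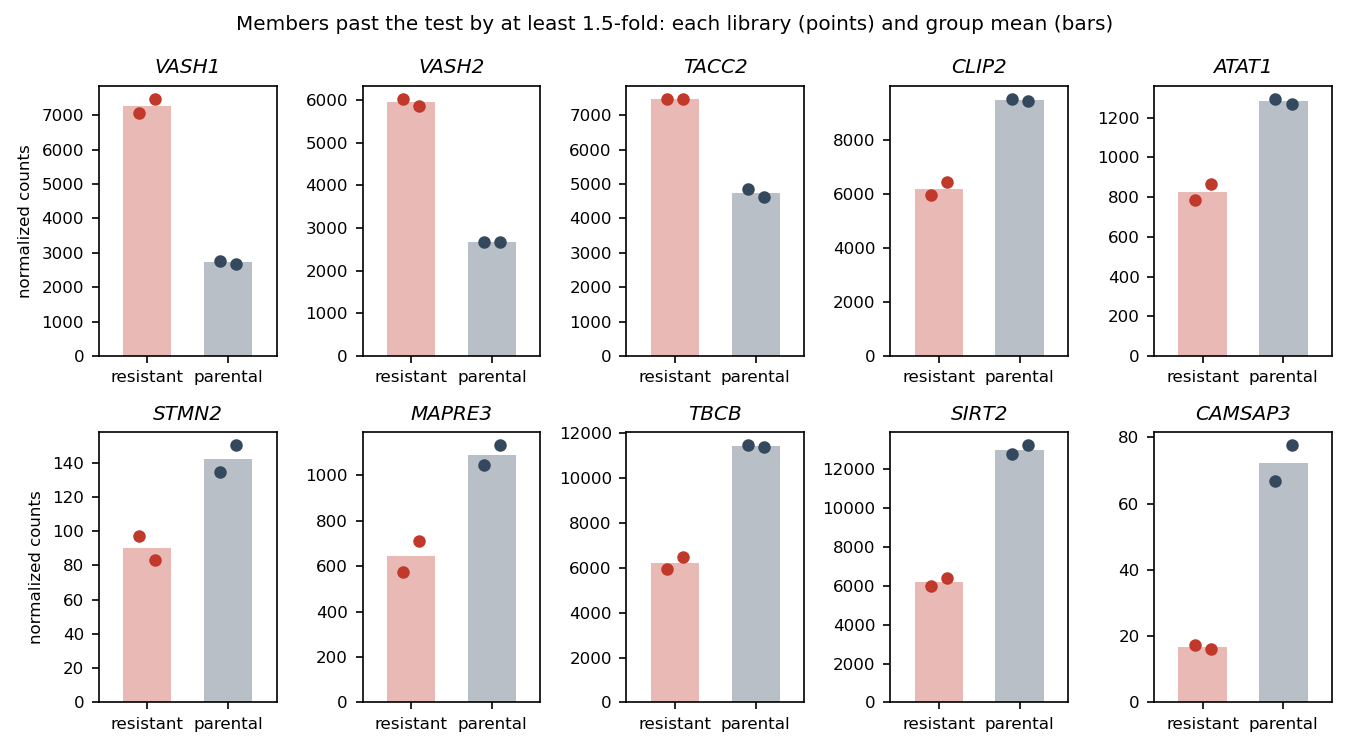
Normalized counts of the 10 genes past the test by at least 1.5-fold, as points for each library and bars for the group mean, each panel on its own axis from 0. VASH1, VASH2 and TACC2 are higher in both resistant libraries, and CLIP2, ATAT1, STMN2, MAPRE3, TBCB, SIRT2 and CAMSAP3 are lower in both.

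All 3 stathmin genes fell, where 34.2% of all genes tested were called lower. Stathmins sequester tubulin dimers and promote shrinkage of microtubules. STMN1, the form of dividing cells, had 26374 and 25932 normalized counts in resistant and 31717 and 31844 in parental libraries, a log2 fold change of -0.28 (SE 0.03, limma adjusted p = 7.78e-10), and lost the call against 1.2-fold. STMN3, a neuronal form, was at 14319 and 15086 in resistant and 21083 and 20836 in parental libraries, a log2 fold change of -0.51 (SE 0.03, limma adjusted p = 3.51e-14). STMN2 (ENSG00000104435), another neuronal form, was much less abundant, at 97.4 and 83.0 in resistant and 134 and 150 in parental libraries, a log2 fold change of -0.65 (SE 0.16, limma adjusted p = 0.000771). Of the summed stathmin level per kilobase, STMN3 held 52.6 and 54.4% in resistant and 57.6 and 57.2% in parental libraries, while with the longest transcript as length STMN1 held the larger share in every library.

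The severing enzymes showed the smallest changes of any class, between -0.13 and 0.22 on the log2 scale. FIGNL1, fidgetin-like 1, which also acts in DNA repair, had 3945 and 3741 normalized counts in resistant and 3310 and 3269 in parental libraries and rose by 0.22 (SE 0.04, limma adjusted p = 2.03e-05). SPAST, the gene of spastin, had 2462 and 2169 in resistant and 2514 and 2552 in parental libraries, a log2 fold change of -0.13 (limma adjusted p = 0.0224). FIGN, the gene of fidgetin, was at 2457 and 2303 in resistant and 2570 and 2634 in parental libraries, also -0.13 (limma adjusted p = 0.0134). Both calls were lost under DESeq2 (DESeq2 adjusted p = 0.0870 and 0.0584), under either other scaling, and without resistant replicate 2 (-0.04 and -0.08), parental replicate 1 (-0.14 and -0.15) or parental replicate 2 (-0.12 and -0.11). FIGNL1 lost its call against 1.2-fold. The katanin catalytic subunit gene KATNA1 (-0.06) and the related KATNAL1 (0.08) did not pass, and KATNAL1 passed without resistant replicate 2 (0.14).

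Of the 12 plus-end genes, 5 rose, 5 fell and 2 did not pass, where 32.7% of all genes rose and 34.2% fell. The end-binding genes MAPRE1 to MAPRE3 encode the proteins that mark growing ends. MAPRE3 (ENSG00000084764), the form enriched in neurons and muscle, had 575 and 711 normalized counts in resistant libraries and 1043 and 1131 in parental libraries, a log2 fold change of -0.76 (SE 0.08, limma adjusted p = 2.05e-09). MAPRE1, the main form, was at 19113 and 18982 in resistant and 23235 and 23619 in parental libraries, a log2 fold change of -0.30 (SE 0.03, limma adjusted p = 4.39e-10), and lost the call against 1.2-fold. MAPRE1 made up 91.3 and 91.1% of the summed end-binding level per kilobase in resistant and 91.2 and 91.2% in parental libraries, and MAPRE3 1.98 and 2.46% in resistant and 2.96 and 3.16% in parental libraries. MAPRE2 had a log2 fold change of -0.09 (limma adjusted p = 0.0392). That call was lost under DESeq2 (DESeq2 adjusted p = 0.115), under either other scaling, with the replicate number as a block (limma adjusted p = 0.0609), and without parental replicate 1 (-0.08), parental replicate 2 (-0.11) or resistant replicate 2 (-0.07).

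The linker proteins CLIP1 and CLIP2, which ride on growing ends, moved in opposite directions. CLIP2 (ENSG00000106665) had 5946 and 6446 normalized counts in resistant and 9521 and 9432 in parental libraries, a log2 fold change of -0.61 (SE 0.04, limma adjusted p = 2.98e-14). CLIP1 was at 4731 and 4695 in resistant and 3857 and 3725 in parental libraries and rose by 0.31 (SE 0.04, limma adjusted p = 3.52e-08), a call lost against 1.2-fold. CLIP1 over CLIP2 per kilobase was 0.314 and 0.287 in resistant and 0.160 and 0.156 in parental libraries. With the longest transcript as length it was 0.749 and 0.685 in resistant and 0.381 and 0.372 in parental libraries. DCTN1, the large dynactin subunit that binds microtubule ends and recruits dynein, had 18907 and 19171 in resistant and 25336 and 25093 in parental libraries, a log2 fold change of -0.41 (SE 0.03, limma adjusted p = 8.12e-13). CLASP1 (0.00) and CLASP2 (-0.06), which stabilize ends and promote rescue of shrinking ones, did not pass, though CLASP2 passed without resistant replicate 1 (-0.11).

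TACC2 (ENSG00000138162), a coiled-coil protein of centrosomes and microtubule tips, had 7483 and 7468 normalized counts in resistant libraries and 4852 and 4617 in parental libraries, a log2 fold change of 0.66 (SE 0.04, limma adjusted p = 4.08e-15). Its relatives TACC1 and TACC3 rose by 0.21 and 0.20, and CKAP5, the polymerase that TACC3 carries to the spindle, by 0.12. TACC2 made up 15.9 and 15.7% of the summed TACC level per kilobase in resistant and 12.4 and 11.7% in parental libraries. The calls of TACC1, TACC3 and CKAP5 were lost against 1.2-fold, and that of CKAP5 also without parental replicate 2 (0.11, limma adjusted p = 0.0590).

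Of the 5 minus-end and lattice genes, 4 fell and 1 did not pass, where 34.2% of all genes fell. CAMSAP1, CAMSAP2 and CAMSAP3 encode proteins that bind and protect minus ends away from the centrosome. CAMSAP3 (ENSG00000076826), the form of epithelial cells, had 17.3 and 16.2 normalized counts in resistant libraries and 66.7 and 77.5 in parental libraries, which is 16 and 17 reads in resistant and 69 and 78 in parental libraries. Its log2 fold change of -2.04 (SE 0.27, limma adjusted p = 1.81e-07) was the largest decrease among the 43 genes, at the lowest level. CAMSAP1 was at 6541 and 6554 in resistant and 7473 and 7427 in parental libraries (-0.19, SE 0.03), and CAMSAP2 at 6892 and 6612 in resistant and 7937 and 8002 in parental libraries (-0.24, SE 0.03). Both fell, and both calls were lost against 1.2-fold. MAP1S, a lattice-binding protein of the MAP1 family, fell by 0.32 on the log2 scale, also lost against 1.2-fold. MAP4, the abundant lattice protein of non-neuronal cells, had 28138 and 28865 in resistant and 29291 and 28959 in parental libraries (-0.03, SE 0.03) and did not pass, though it passed without resistant replicate 2 (-0.05).

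The order of levels was similar in both groups at the top. Per kilobase of merged exons, MAPRE1 was highest, at 7262 in resistant and 8931 in parental cells, followed by STMN3 at 4849 in resistant and 6913 in parental cells, and by STMN1 at 4177 in resistant and 5076 in parental cells (means of 2 libraries). TBCB was at 1867 in resistant cells, below CKAP5 at 2386 and TBCA at 2126, whereas in parental cells TBCB, at 3434, came next after the stathmins. CAMSAP3 was at 3.46 in resistant and 14.9 in parental cells, and TTLL3 at 9.93 in resistant and 9.27 in parental cells, so CAMSAP3 was lowest in resistant and TTLL3 in parental cells. With the longest transcript as length the order changed. STMN1 was then highest, at 8874 in resistant and 10784 in parental cells, TBCB came next after MAPRE1 and STMN3 in both groups, and CAMSAP3 was lowest in both.

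Position on the chromosomes was not used to choose the genes. For each of them the median log2 fold change of the 10 nearest tested genes on either side was taken from GENCODE coordinates on GRCh38. In 28 of 43 cases (65.1%) the gene and this neighbour median had the same sign, where 63.8% of 17762 placed genes did. TACC2 (chromosome 10 from 121989174 to 122254545) rose by 0.66 among neighbours with a median of 0.80, of which 17 of 20 were called higher. CLIP1 (chromosome 12 from 122271432 to 122422632) rose by 0.31 beside a neighbour median of 0.43. Both were thus below their neighbours. MAPRE1 (chromosome 20 from 32819893 to 32850405) was at -0.30 beside -0.40, and MAP1S (chromosome 19 from 17719242 to 17734516) at -0.32 beside -0.31.

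All 4 of the genes on chromosome 19 fell, where 57.1% of its 1257 tested genes were called lower and their median was -0.31. TBCB (from 36114289 to 36125947) was at -0.88 beside a neighbour median of -0.41, with 15 of 20 neighbours called lower and 0 higher. CAMSAP3 (from 7595902 to 7618304) was at -2.04 beside -0.54, and SIRT2 (from 38878555 to 38899862) at -1.07 beside -0.19. For SIRT2 the neighbour median was -0.11 in a narrower window and -0.38 in a wider one. Both of the genes on chromosome 20 fell, where 60.2% of 465 genes were called lower. On chromosome 2, 6 of 8 fell, where 36.2% of 1281 genes were called lower. On chromosome 9, 2 of 2 fell, where 30.2% of 713 genes were called lower. On chromosome 3, 0 of 3 fell, where 27.9% of 958 genes were called lower. Shares were taken for these chromosomes alone, not for every chromosome that holds some of the genes. On chromosome 1, 3 of 4 fell and on chromosome 6, 1 of 3, beside 34.2% of all genes tested. The part that a shift of whole chromosomal regions has in these values was not tested.

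The vasohibin genes stood apart from their surroundings. VASH1 (chromosome 14 from 76762189 to 76783015) was at 1.42 beside a neighbour median of 0.17, and VASH2 (chromosome 1 from 212950520 to 212992037) at 1.16 beside -0.09, so each exceeded its neighbours by 1.25. ATAT1 (chromosome 6 from 30626842 to 30646823) was at -0.64 beside 0.04, and CLIP2 (chromosome 7 from 74289475 to 74405943) at -0.61 beside -0.01. SPAST (chromosome 2 from 32063547 to 32157637) was at -0.13 where its neighbours had a median of -0.56, and TACC3 (chromosome 4 from 1721490 to 1745176) at 0.20 where they had -0.27. The neighbour median depends on how many genes are taken. For SPAST it was -0.08 in a narrower window, near its own value, and -0.28 in a wider one. In the narrower and the wider window it was 0.08 and 0.08 for VASH2, -0.10 and 0.13 for ATAT1, and 0.15 and -0.17 for CLIP2. Its sign thus changed with the window for these genes.

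**Figure D4:**
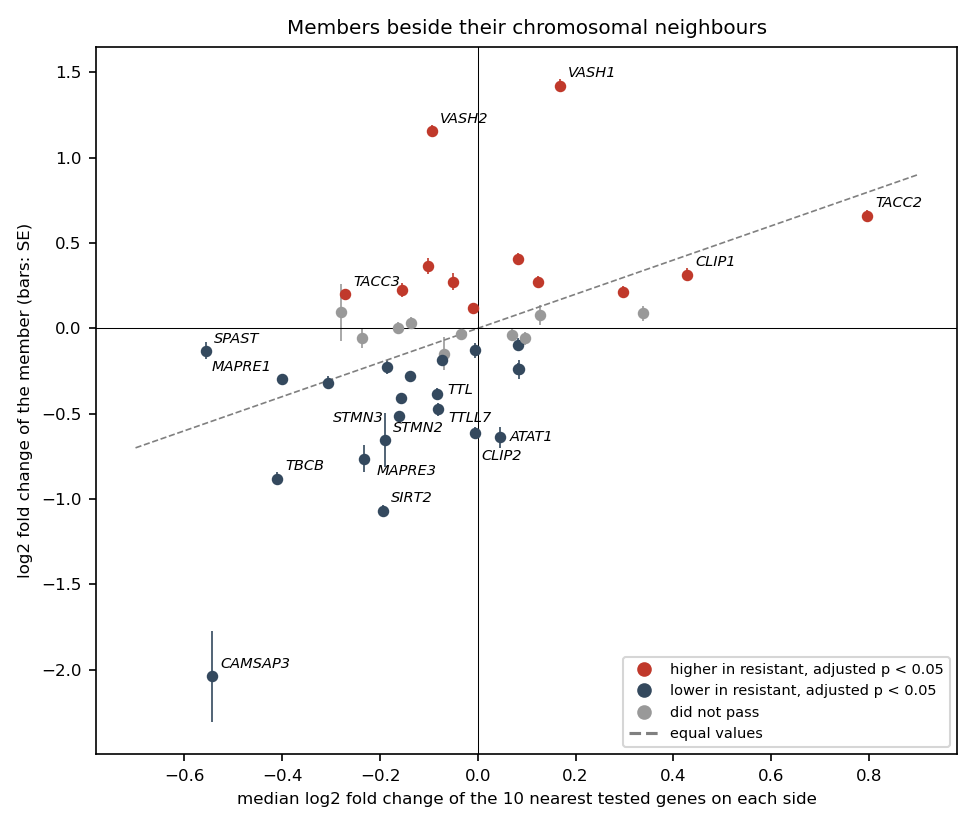
Log2 fold change of each of the 43 genes, with its standard error, against the median of the 10 nearest tested genes on each side, and the line of equal values. VASH1 and VASH2 lie 1.25 above their neighbours, TACC2 (0.66 beside 0.80) lies just under the line, and TBCB, SIRT2 and CAMSAP3 lie below it.

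Other genes of tubulin folding, modification, severing and tip binding were listed by function, 89 in all, and 79 were measured. Of these 24 rose, 33 fell and 22 did not pass, together 72.2% past the threshold, near the 66.9% of all genes (32.7% higher and 34.2% lower). Their median log2 fold change was -0.02. The gene with the largest increase was MARK1, a kinase that phosphorylates microtubule-associated proteins, at 341 and 347 normalized counts in resistant and 81.2 and 100 in parental libraries (1.92, SE 0.13). Its neighbours had a median of 0.96. CLIP3, a relative of CLIP1 found at the Golgi, had 2536 and 2508 in resistant and 5566 and 5505 in parental libraries (-1.13, SE 0.04), beside a neighbour median of -0.41.

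The following subgroups were formed after their values were seen, and their counts stand against the same shares over all genes. Of the 8 subunits of the chaperonin that folds tubulin, 1 rose, 3 fell and 4 did not pass. CCT2 was the one that rose (0.43, SE 0.03), beside neighbours at 0.51, and TCP1 (-0.30, SE 0.03) fell most. Prefoldin subunits, which deliver unfolded tubulin to the chaperonin, gave 1 that rose, 2 that fell and 3 that did not pass of 6. Of 8 dynactin subunits other than DCTN1, 4 rose, 1 fell and 3 did not pass. DCTN6 rose by 0.30, beside neighbours at -0.06, and ACTR1A, the actin-related filament subunit, by 0.26, beside neighbours at 0.59. DCTN4 (0.16) and DCTN2 (0.08) rose less, and DCTN3 fell (-0.11). DCTN1 was at -0.41, beside neighbours at -0.16.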

How the data were processed

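Sample titles gave group and replicate number for the 4 libraries. Per the submitters' processing notes, bcl2fastq 2.17, STAR 2.5.2b, featureCounts from Subread 1.5.2, DESeq2 and GRCh38 were used. No source used here gives the annotation or the strand setting. The deposited library columns are a signal, gene counts divided by a size factor by the authors, as the values show. In every column 100% of values were whole multiples of a step within 0.01, so whole reads were recovered. The deposited log2 fold changes (resistant over parental) and p-values, per the file headers, were set beside the calls made here.

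The 18330 genes that reached 10 normalized counts in 2 or more libraries were fitted as log2(value + 1) with limma 3.58.1 in R 4.3.3 on group alone, with an intensity trend and Benjamini-Hochberg adjustment at 0.05. Fold changes are on that scale, which understates changes of weakly expressed genes. Neighbours, merged exons, transcript lengths and overlaps came from GENCODE on GRCh38, and promoter windows from RefSeq, which held 39 of the 43 genes. Apart from the overlaps given with VASH1, TBCB and TTLL3, 4 further genes (TTLL1, TBCD, KATNA1 and DCTN1) share over 5% of their exonic bases with another gene, so their counts are less certain. DESeq2 1.42.0, edgeR 4.0.16 and limma-voom on recovered reads were alternatives, and the edgeR common dispersion was 0.000566. Replicates differed by more than sampling noise (chi-square per gene 4.04 in the resistant pair and 1.61 in the parental pair). The genes, lists and classes were chosen with earlier results of these data known. Every gene of the 43 could be named. Of the further genes, called genes whose log2 change was 1 or more and whose higher group averaged 100 or more were named, and any others are marked.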

Additional observations from a re-analysis of the deposited data

How the results depend on the processing

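Of the 43 genes, 18 kept their direction and their side of the threshold under all 16 alternative settings, 16 of them called: VASH1, VASH2, TACC2, TTLL4, TBCC, TTL, TTLL7, ATAT1, SIRT2, TBCB, STMN2, STMN3, MAPRE3, CLIP2, DCTN1 and CAMSAP3. Requiring a change above 1.2-fold left 5 higher and 11 lower, 9 and 14 among the further genes, and 3380 and 3414 over all genes. With an edgeR dispersion fixed at 0.01, an assumed spread of 10% between cultures, 5 and 11 were left, 11 and 15 among the further genes, and 4063 higher and 3880 lower over all genes. The same 17 calls were lost in both settings. The median was -0.0416 when scaled to the same upper quartile, which moved the median of all genes to 0.06, and -0.121 to -0.0544 when each library was left out, where the lone library is assumed to vary like the others. Counts of calls without a library rest on 1 library in a group and are not set against all genes. Signs changed for uncalled genes alone. MAP4 was 0.00185 at equal totals and 0.0219 at equal upper quartiles, and TBCA 0.0154 at equal upper quartiles. When each library was left out, CLASP1 ranged from -0.0192 to 0.0283, TTLL3 from -0.0279 to 0.216 and TTLL12 from -0.0107 to 0.0704. With the longest transcript as length, VASH1 and VASH2 over TTL was 5.58 in resistant and 1.77 in parental cells, against 4.08 and 1.25 with merged exons. Same-numbered libraries did not deviate together. The difference of replicate 1 from replicate 2 had a correlation of -0.03 between the 2 groups, over the 18330 genes tested. With the replicate number as a block, 42 of the 43 kept their direction and their side of the threshold, and MAPRE2 lost its call. DESeq2 called 12 higher and 18 lower, against 4968 higher and 5432 lower over all genes. No cause of these shifts was tested. The depth limits CAMSAP3, TTLL3 and STMN2, the genes with fewest reads.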
